A study of Mus musculus with 2 samples.

Results

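The cells described here are Csf3-expressing ECs of a tumour injected with cGAMP, and they numbered 176 of the 1340 ECs in that library and of 3857 ECs in the series. They were chosen by one measured value, a deposited expression value of Csf3 of at least 0.7 on a natural log scale, which corresponds to 1.01 UMIs (counted transcript molecules) of Csf3 per 10000 UMIs of the cell. They are called Csf3 cells below. They were set against the 968 cGAMP-treated ECs with Csf3 at 0, weighted so that both groups had the same distribution of genes detected per cell. A further 196 cells had Csf3 above 0 and below the limit, and they entered neither side. Because Csf3 of these same cells chose the groups, every value of other genes in them is a description and carries no test.

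Csf3 encodes granulocyte colony-stimulating factor (G-CSF), a secreted cytokine that acts on Csf3r of neutrophils and their precursors. It drives neutrophil production in the bone marrow and their release into blood. ECs, fibroblasts and macrophages are known to transcribe it after inflammatory signals such as IL-1, TNF and bacterial products, through NF-kB and C/EBP factors, and its mRNA is short-lived because of AU-rich elements. Venous and postcapillary ECs are the vessel segment where leucocytes roll, adhere and leave the blood. The gene lies at chr11:98701263-98703629 on the plus strand of GRCm38, and its counted molecules are those assigned to the whole gene.

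Both libraries came from C57BL/6 mice, adult according to the labels and male C57BL/6 J according to the methods on LLC tumours, carrying implanted Lewis lung carcinoma (LLC) tumours, a mouse lung cancer line, with 1 tumour injected with PBS and 1 with cGAMP, the second messenger that binds STING. CD31+ ECs were sorted as live cells and profiled by droplet-based scRNA-seq the day after the injection according to the methods, whereas a supplementary legend gives a shorter interval. Each library was 1 sample from 1 mouse, so the mouse, the library and the treatment cannot be told apart. The PBS library held 2517 ECs with a median of 29780 UMIs and the cGAMP library 1340 ECs with a median of 41178, and they shared 1 cell barcode. The tumours were implanted, and only ECs that were alive at sorting and passed the authors' filters were present.

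Csf3 was concentrated in few cells. The Csf3 cells made up 13.1% of the cGAMP-treated ECs (exact binomial 95% interval 11.4 to 15.1) and held 4488 of the 4870 Csf3 UMIs of the library, or 92.2%. A Csf3 cell had between 1 and 131 Csf3 UMIs with a median of 16, and 159 of the 176 had 5 or more. On the scale of UMIs per 1000000 UMIs (CPM), the level per cell was 101.5 at the lowest, 350.3 at the median and 3620 at the highest. The 5 cells with the most Csf3 held 11.6% of the library's Csf3 UMIs and the 18 with the most held 31.5%. Summed over the cells, Csf3 stood at 534.8 CPM (exact Poisson 95% interval 519 to 551) in Csf3 cells and at 33.4 CPM in the cells below the limit. These intervals and all others given here cover counting error only.

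The limit fell inside a continuous range. The members closest to it had values of 0.701, 0.714 and 0.727, and the closest cells outside had 0.698, 0.677 and 0.674. Within 0.1 of the limit there were 11 members and 15 cells outside. Among the cells below the limit the median was 1 Csf3 UMI, and 15 of them had 5 or more UMIs and fell short because of their depth. Only 2 members rested on a single Csf3 UMI.

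The share of Csf3 cells showed no steady course with the genes detected. Csf3 cells had 2034 to 8285 genes detected with a median of 6098.5, against 731 to 9125 with a median of 5774 in cells with Csf3 at 0. Over 10 groups of cells ordered by genes detected, the share of Csf3 cells ranged from 8.96% to 19.4%, with 11.2% among the cells with the fewest genes and 9.70% among those with the most. When each cell was thinned to 5000 UMIs, 177 of 1327 cGAMP-treated ECs (13.3%, 11.6 to 15.3) had a Csf3 UMI. They included 138 of the 176 Csf3 cells (78.4%), and the others were cells below the limit. Lyz2, a macrophage and neutrophil lysozyme that ECs should lack, was found in 6.71% (5.42 to 8.19) of the 1327 thinned cells. Its source in these cells, whether free RNA, doublets or the ECs themselves, was not tested. In the PBS library the thinned shares were 1.63% for Csf3 and 1.96% for Lyz2, so at that depth the PBS share with a Csf3 UMI was not above that of Lyz2. The PBS cells with several Csf3 UMIs are described further on by their counts and their place in a ranking by venous genes. The mitochondrial share of UMIs had a median of 2.80% in Csf3 cells and 2.88% in cells with Csf3 at 0.

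**Figure D1:**
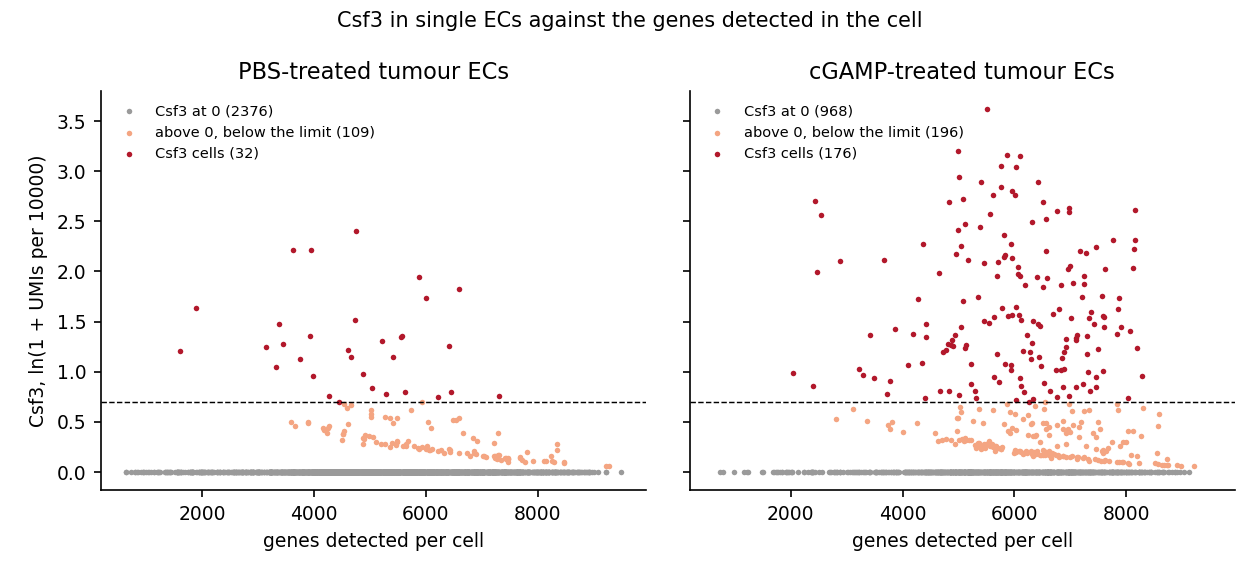
Deposited Csf3 value (natural log of 1 plus UMIs per 10000) of every EC against the genes detected in that cell, with 1 panel for the PBS library and 1 for the cGAMP library; the dashed line is the limit of 0.7. Cells above the line occur over nearly the whole range of genes detected, 176 of them in the cGAMP library and 32 in the PBS library.

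The Csf3 cells carried the endothelial markers and few markers of other cells. Cdh5, the junctional VE-cadherin, and Pecam1, the CD31 used for sorting, were each found in 176 of 176 cells, and 12 of 12 pan-endothelial genes were measurable with a median log2 ratio of -0.10 over cells with Csf3 at 0. One of the 12, the tight junction gene Cldn5, was more than 2-fold lower (log2 ratio -1.79). Ptprc, the leucocyte antigen CD45, had a UMI in 4 Csf3 cells (2.27%) and in 16 of the comparison cells (1.65%). Csf3r, the receptor that marks neutrophils, had 1 UMI in all Csf3 cells together. Epcam of epithelial cells was at 0 on both sides, where a count of 0 of 176 allows up to 1.70% of cells with an Epcam UMI (3 cells), and Col1a1 and Pdgfrb of fibroblasts and pericytes occurred in 3 and 2 Csf3 cells.

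Some leucocyte transcripts were nevertheless higher in Csf3 cells, and their part in the other results was not tested unless stated. The 16 leucocyte markers, of which 5 passed the minimum level of 5 CPM on either side, summed to 241 CPM in Csf3 cells and 74.1 CPM in cells with Csf3 at 0, and per cell they ranged from 0 to 2210 CPM and from 0 to 3350 CPM. Cd14, a co-receptor for bacterial lipopolysaccharide, made up most of that sum at 189.6 CPM and had UMIs in 156 Csf3 cells. Lyz2 was found in 40.9% of Csf3 cells and 36.6% of comparison cells before thinning, and in 5.68% and 7.64% after thinning. A single Csf3 cell held 55 of the 163 Lyz2 UMIs, and a single cell held 27 of the 60 UMIs of Tyrobp, a myeloid adaptor. S100a8, a granule protein gene of neutrophils, was found in 31 Csf3 cells (17.6%) and 54 comparison cells (5.58%), with at most 5 UMIs in a cell. The 11 neutrophil markers summed to 63.2 CPM against 11.3 CPM, most of it from Lcn2, which is described below. Fibroblast or mural markers summed to 59.7 against 33.8 CPM, and epithelial markers to 1.43 against 0.758 CPM.

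Across the 9469 genes with at least 5 CPM on either side, 300 (3.17%) were at least 2-fold higher in Csf3 cells and 356 (3.76%) at least 2-fold lower, with a median log2 ratio of -0.03. The members of this comparison are read against these shares throughout. Csf3 cells stood out first in the gene lists of vessel segments. The venous list also holds genes of leucocyte adhesion, IL-6 signalling and the acute phase, which are named below. Whether its level marks a vessel segment or activation of the cells was not tested. Of 15 stalk-like or venous genes, 11 were at least 2-fold higher and none 2-fold lower, with a median log2 ratio of 1.24. Of 15 tip-like genes, those of sprouting ECs, 11 were at least 2-fold lower and none higher, with a median of -2.87, and of -1.35 when any Csf3 UMI made a cell a member. Of 13 measurable arterial genes, 8 were at least 2-fold lower and 1 higher, with a median of -1.99.

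Selp, the P-selectin on which leucocytes roll, had a median of 1127 CPM per Csf3 cell (0 to 13490) and of 20.8 CPM per cell with Csf3 at 0 (0 to 2856). The ranges overlapped, but Selp UMIs were found in 99.4% of Csf3 cells and in 54.5% of comparison cells.

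Ackr1, a chemokine-binding receptor of venules, had a median of 529.7 CPM (0 to 2560) against 0 (0 to 3908). Its summed level was 601 against 64.1 CPM, a log2 ratio of 3.23. Hdc, which makes histamine and is not in the venous list, had a median of 191 CPM (0 to 1242) against 0 (0 to 1134). Besides Selp and Ackr1, the venous list included E-selectin Sele (log2 ratio 3.20), the cathepsin Ctsh (2.71), the IL-6 receptor subunit Il6st (1.98), Icam1 (1.66), Lrg1 (1.33), the venous transcription factor Nr2f2 (1.24), von Willebrand factor Vwf (1.19) and Vcam1 (1.04). Plvap and Emcn, which most tumour ECs share, had log2 ratios of 0.27 and -0.10.

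When the cGAMP-treated ECs were ranked by the venous list, which does not contain Csf3, and divided into 5 groups of 267 to 269 cells, the number of Csf3 cells was 0, 2, 12, 50 and 112 from the lowest group to the highest. The highest group thus consisted of Csf3 cells to 41.8% (35.8 to 47.9). After thinning to 5000 UMIs, the share of cells with a Csf3 UMI was 1.54%, 2.64%, 4.49%, 21.3% and 36.2%. The same ranking by the tip-like list gave 87, 62, 22, 4 and 1 Csf3 cells, and by the arterial list 62, 48, 32, 28 and 6. The NF-kB list gave 2, 12, 19, 48 and 95, whereas the interferon response list gave 17, 22, 25, 54 and 58. These groups were not matched for depth, and the median UMIs per cell were 30152 in the lowest NF-kB group and 47764 in the highest. After thinning, 1.18% and 31.7% of the cells in these 2 groups had a Csf3 UMI. Even among the 134 cells that ranked highest for venous genes, 59 (44.0%) were Csf3 cells and 49 had Csf3 at 0.

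**Figure D2:**
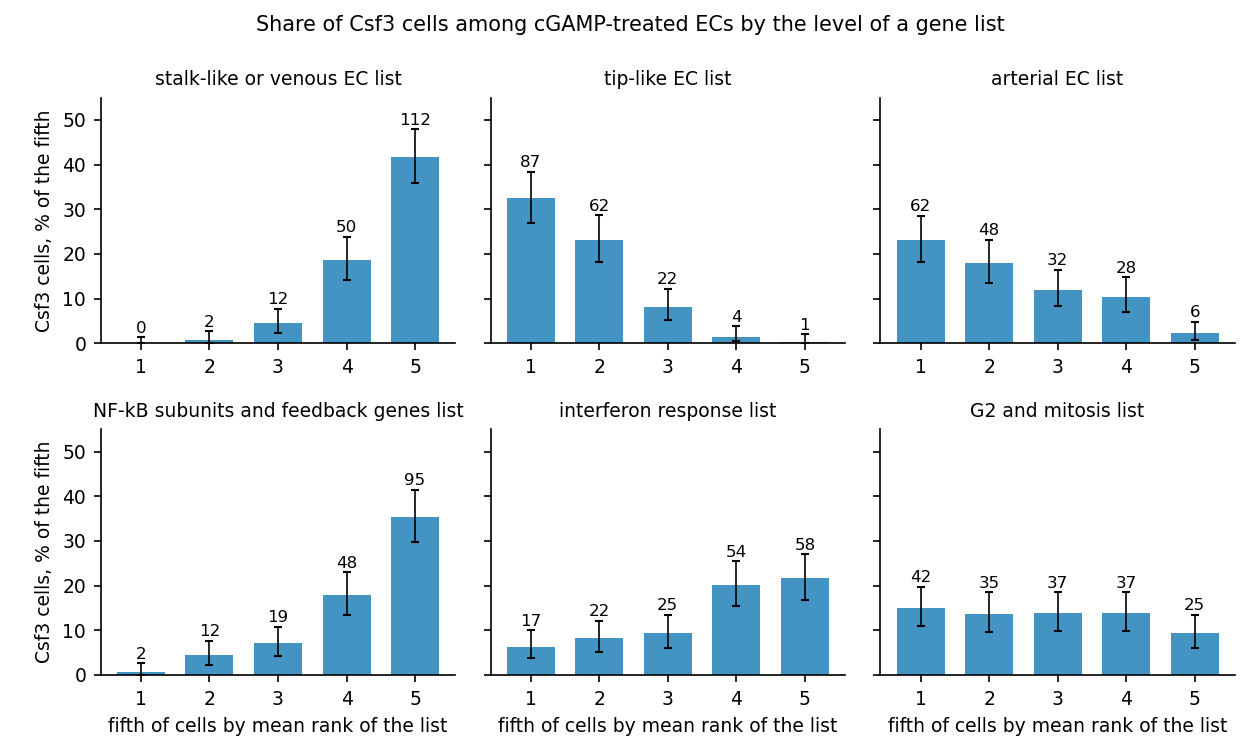
Share of Csf3 cells, in percent with exact binomial 95% intervals, among cGAMP-treated ECs ranked by the mean rank of the genes of a list and divided into 5 groups from lowest to highest, 1 panel per list. The share climbs from 0% to 41.8% over the venous groups and from 0.746% to 35.4% over the NF-kB groups, and it goes from 32.5% down to 0.373% over the tip-like groups. The groups were not matched for depth.

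Of the 176 Csf3 cells, 162 (92.0%) were in the upper 2 venous groups, where they made up 30.2% of 536 ECs (26.4 to 34.3). The other 14 were 1.74% of the 804 ECs in the lower 3 groups. These 14 cells had 2 to 47 Csf3 UMIs with a median of 10.5, and 12 of them had 5 or more. Selp was present in 13 of the 14 and Ackr1 in 11, while Gja4 was present in none and Esm1 in 5. In the lowest venous group 23 of 269 cells had a Csf3 UMI and none reached the limit.

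The 12 genes other than Csf3 with the largest ratios, among those with at least 20 CPM, held 4 of the venous list and 8 others. Fgf23, a hormone of phosphate balance made mainly by bone cells, stood at 45.3 CPM against 2.96 CPM, a log2 ratio of 3.93 (3.51 to 4.36). Its level per Csf3 cell was 0 to 465 CPM with a median of 12.3, against a median of 0 and a highest value of 497, and it had UMIs in 52.3% of Csf3 cells and 5.99% of comparison cells. Fjx1, a secreted protein of the Four-jointed family, was at 129 against 9.79 CPM (3.72). Lcn2, lipocalin 2, which binds bacterial siderophores and is carried in neutrophil granules but also made by inflamed tissue cells, was at 51.5 against 5.44 CPM (3.24, 2.92 to 3.57). Lcn2 reached 1078 CPM in a Csf3 cell although its median was 0 on both sides. In the same Csf3 cells Csf3r had 1 UMI and S100a8 had 41 UMIs against the 432 of Lcn2.

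The remaining genes of the 12 were Lbp, which carries lipopolysaccharide to Cd14 (88.5 against 11.6 CPM, log2 ratio 2.93), the matrix proteoglycan Bgn (2.80), Hdc (2.72), Ctsh (2.71), the RNA Gm12840 (2.65) and Eps8, a regulator of actin (2.57). As the choice of the 12 required, each was higher both in Csf3 cells with many and in those with few genes detected. For Lcn2 the log2 ratio was 4.35 in the cells above the median of genes detected and 2.26 in those at or below it.

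The 8 genes with the smallest ratios were mostly arterial, tip-like or capillary. Gja4, the arterial connexin 37, had 2 UMIs in all Csf3 cells, or 0.238 CPM (0.0289 to 0.861), against 27.2 CPM, and Unc5b, a netrin receptor of tip cells, also had 2 UMIs against 24.97 CPM. Their log2 ratios lay between -9.97 and -4.90 and between -9.85 and -4.77. Gja5, the arterial connexin 40, had no UMI in Csf3 cells and was at 10.3 CPM in the comparison, a log2 ratio of at most -4.85 when 3 UMIs are allowed. Gal, which encodes the neuropeptide galanin, had a log2 ratio of -6.24, the tip cell proteoglycan Esm1 -4.94, the arterial chemokine Cxcl12 -4.50, fibronectin Fn1 -4.32 and the inducible nitric oxide synthase Nos2 -4.11.

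Gpihbp1, which anchors lipoprotein lipase on capillary ECs, was at 67.3 CPM against 1221 CPM, a log2 ratio of -4.18. Its median per cell was 19.6 CPM (0 to 827) in Csf3 cells and 995 CPM (0 to 8007) in cells with Csf3 at 0. Of the 9 measurable capillary genes, Rgcc (-2.91) and Cd300lg (-1.60) were also at least 2-fold lower, Car4, carbonic anhydrase 4, was higher (1.82), and the fatty acid carriers Fabp4 and Cd36 had 0.08 and -0.06. The median of that list was -0.06, so its members went different ways.

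Because the groups differed so widely in venous genes, the comparison was repeated against cells with Csf3 at 0 in the same 1 of 10 groups of the venous ranking. That comparison was added after seeing the data. Of 9442 genes, 51 (0.54%) were then at least 2-fold higher and 120 (1.27%) at least 2-fold lower. The venous list had a median log2 ratio of 0.06, which follows from matching on these same genes. It shares Selp, Sele, Icam1 and Vcam1 with the leucocyte adhesion genes, Il6st with the IL-6 signalling genes and Lrg1 with the acute phase genes. The ratios of these shared genes shrink by construction. Of the 300 genes that were 2-fold higher in the first comparison 36 remained, and of the 356 that were lower 108 remained. Among the genes used for matching, Selp then had a log2 ratio of 0.80, Ackr1 0.78, Sele 0.32 and Icam1 0.08. Hdc, which was not used for matching, had 0.77. All 8 of the lowest genes were still at least 2-fold lower, Gpihbp1 at -2.89. The counting intervals of Cxcl12 (-2.08 to -0.95), Gal (-3.23 to -0.72) and Nos2 (-3.21 to -0.08) nevertheless reached ratios smaller than 2-fold. The tip-like list had a median of -0.39 in that comparison, with 6 genes at least 2-fold lower and 1 higher, and the arterial list had -1.11, with 7 lower and none higher. Pgf, a VEGF family growth factor of tip-like ECs, changed side from -2.87 to 1.22. It had UMIs in only 11.9% of Csf3 cells, with a median of 0 and a highest value of 1656 CPM per cell. The part of single cells in this change was not tested.

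With the venous rank matched, 11 genes with at least 20 CPM in Csf3 cells were still at least 2-fold higher, and they are named here after their values were seen. Lcn2 had a log2 ratio of 2.54 (2.02 to 2.997) and Fgf23 of 2.24 (1.64 to 2.82). P2ry6, a receptor for UDP, was at 27.7 CPM and kept its log2 ratio (1.69 before and 1.66 after). Cxcl1 and Cxcl2, chemokines that attract neutrophils through Cxcr2, had 1.31 and 1.12, and the ubiquitin-like modifier Ubd had 1.23. The metallothioneins Mt2 and Mt1, which bind zinc and copper, had 1.22 and 1.15 at 162 and 164 CPM. Stat5a, a transcription factor downstream of cytokine receptors, had 1.08, Gm12840 had 1.33 and Fjx1 had 1.05. The counting intervals of Mt2, Mt1, Fjx1, Cxcl2, Gm12840 and Stat5a reached below 2-fold, and those of the other genes did not. The lower limits of these intervals were 0.98, 0.94, 0.76, 0.74, 0.65 and 0.48.

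**Figure D3:**
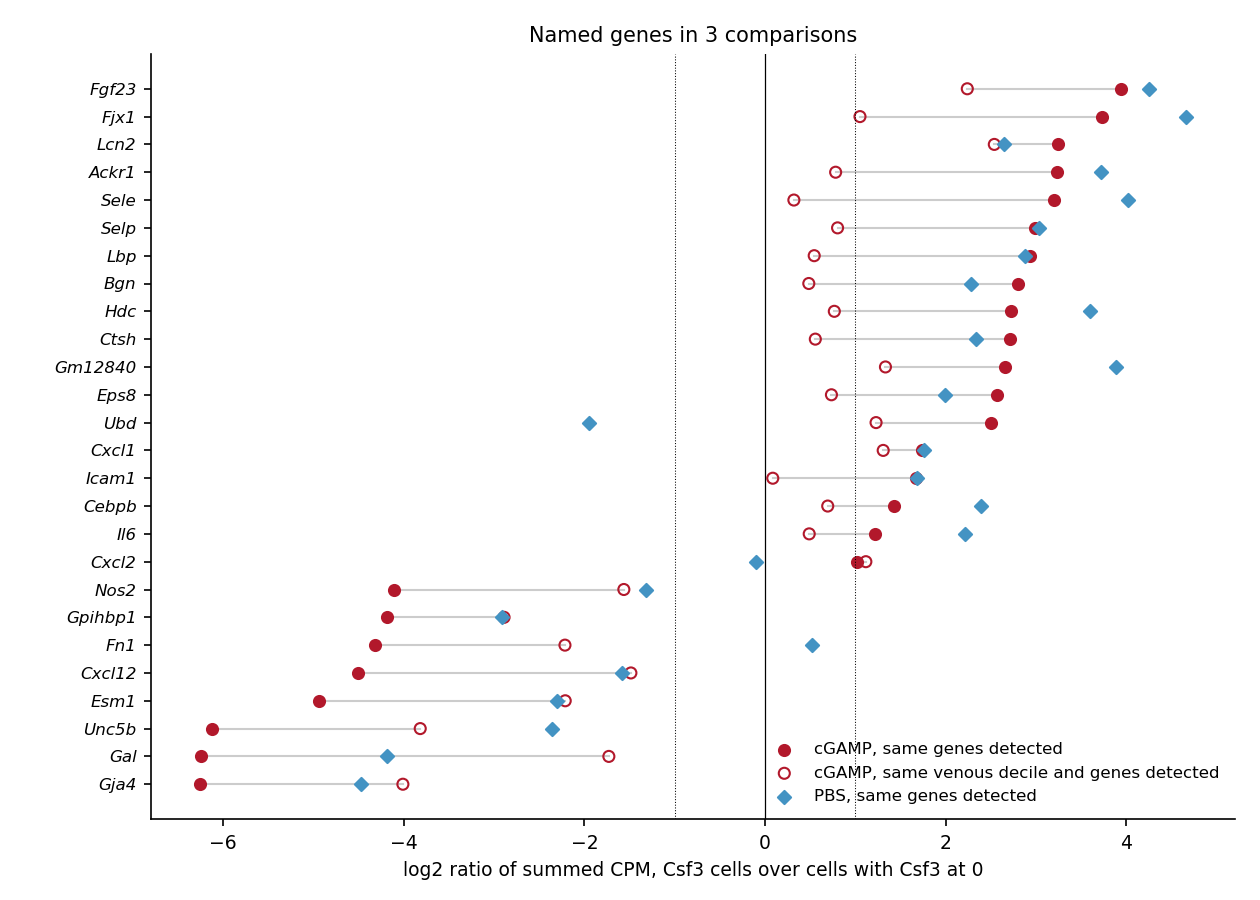
Log2 ratio of summed CPM, Csf3 cells over cells with Csf3 at 0, of the 12 genes with the largest and the 8 with the smallest ratios in 3 comparisons: the cGAMP library, the cGAMP library with cells of the same venous rank, and the PBS library. Il6, Cxcl1, Cxcl2, Ubd, Cebpb and Icam1, which are not among these genes, are drawn in addition. Genes with fewer than 3 UMIs in Csf3 cells, such as Gja4 and Unc5b, are placed at the ratio that 3 UMIs would give. The venous-rank values lie closer to 0 for Selp (0.80) and Sele (0.32) than for Lcn2 (2.54) and Fgf23 (2.24). Selp and Sele are genes of the venous rank itself, whereas Lcn2 and Fgf23 are not.

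Among the other myeloid growth factors and cytokines of the IL-6 family, 4 of 12 were measurable and 1 was at least 2-fold higher. Il6, a pleiotropic cytokine that like G-CSF is induced by NF-kB and C/EBP factors, was at 173 against 74.1 CPM, a log2 ratio of 1.22 (1.09 to 1.35), and of 0.49 with the venous rank matched. After thinning, 88 of the 176 Csf3 cells and 257 of 955 comparison cells (26.9%) had an Il6 UMI. Csf1, the macrophage growth factor, was at 27.2 against 14.02 CPM (0.96), the stem cell factor gene Kitl had -0.26 and the cytokine Clcf1 had 0.30. Lif had 1 UMI and Osm 3 UMIs in all Csf3 cells.

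Of the chemokines for neutrophils, 3 of 7 were measurable and 2 were at least 2-fold higher. Cxcl1 was at 162 against 48.6 CPM (log2 ratio 1.74) and had a UMI in 38.1% of thinned Csf3 cells against 16.02%. Cxcl2 was at 51.8 against 25.7 CPM (1.01) and had a UMI in 13.1% against 9.01%. Pf4, a platelet factor, had 0.18. Chemokines for monocytes and lymphocytes went both ways: of 6 measurable, Cxcl16 (1.66) and Cxcl10 (1.14) were at least 2-fold higher and the monocyte chemokine Ccl2 (-1.01) was at least 2-fold lower.

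The promoters of Il6, Cxcl1, Cxcl2 and Ubd are shown because they hold a binding motif of NF-kB (GGG, any 3 bases, then TTCC, searched on both strands). Those of the other cytokine and chemokine genes are not shown. In RefSeq promoters of GRCm38.p6, each from 250 bases before to 50 after the start of the gene, 1493 of 27025 (5.52%) held the motif, as did 472 of the 7460 genes tested here that matched the table (6.33%). It was held by 26 of 218 promoters (11.9%) of the genes at least 2-fold higher in Csf3 cells and by 11 of 253 (4.35%) of those at least 2-fold lower. It was held by 8 of 19 promoters of the NF-kB list (42.1%) and by none of the 7 matched among the 12 genes with the largest ratios. Of the 3 measurable chemokines for neutrophils, 2 held it, Cxcl1 and Cxcl2. The following windows are on the plus strand, with the motif in capitals, and the matches listed start 44 bases before the gene for Il6, 71 for Cxcl1, 97 and 78 for Cxcl2 and 15 for Ubd. Cxcl1 and Cxcl2 each also hold the motif on the minus strand overlapping the first match listed for each, and Cxcl1 holds a further match on the minus strand, 89 bases before the gene, that does not overlap it. The promoter of Csf3 itself was not used here. A match describes the letters of the window and is no evidence of binding.
Il6, chr5:30013060-30013089: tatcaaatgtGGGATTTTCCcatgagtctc
Cxcl1, chr5:90891164-90891193: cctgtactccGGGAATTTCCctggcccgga
Cxcl2, chr5:90903792-90903821: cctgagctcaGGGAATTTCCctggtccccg
Cxcl2, chr5:90903811-90903840: cctggtccccGGGCTTTTCCagacatcgtg
Ubd, chr17:37193867-37193896: cattgaacttGGGGATTTCCaacccagcta

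The NF-kB subunits and their feedback genes were higher by small amounts and nearly all in one direction. Of 23 measurable genes, 22 had a log2 ratio above 0 and 7 were at least 2-fold higher, with a median of 0.55. The 7 were the kinase Map3k8 (1.25), the RNase Zc3h12a (1.21), the IkB-like regulator Nfkbiz (1.17), Ier3 (1.11), the deubiquitinase Tnfaip3 (1.02), Bcl3 (1.01) and Traf1 (1.01). The inhibitor Nfkbia was at 0.82 and the subunit Rela at 0.03. At matched venous rank the median of the list was 0.21 and Zc3h12a, at 1.22, was the only gene that remained at least 2-fold higher.

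Genes of C/EBP, STAT3 and IL-6 signalling gave a median of 0.81, with 15 of 15 above 0 and 5 at least 2-fold higher. Il6st and Lifr, which encode receptor chains for IL-6 family cytokines, had 1.98 and 1.76, and the oncostatin M receptor Osmr had 1.06. Cebpb, a transcription factor of G-CSF and IL-6 promoters, was at 261 against 97.4 CPM (1.42) and at 0.69 with the venous rank matched, and Cebpa had 1.15. Socs3, the feedback inhibitor of that pathway, had 0.88. Among cells of the same venous rank, which Il6st helps to set, the median was 0.15 and none of the 15 was at least 2-fold higher.

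Of 21 measurable receptors and adaptors for inflammatory signals, 3 were at least 2-fold higher and 1 lower, with a median of 0.31. Cd14 had a log2 ratio of 2.36, the IL-1 receptor Il1r1 1.55, and Tlr2, a receptor for bacterial lipoproteins, 1.19. Tlr4, which recognises lipopolysaccharide, had 0.80, and the IL-1 co-receptor Il1rap had -1.10. With the venous rank matched, Cd14 was at 0.44 and Il1r1 at 0.25. Of 13 factors that bind or degrade cytokine mRNA, Zc3h12a alone was at least 2-fold higher, Zfp36, which destabilises AU-rich mRNA, had 0.71, and the median was -0.05. Of 17 AP-1 and immediate early genes none reached 2-fold in either direction, with a median of 0.42 and the largest value, 0.77, for Egr1.

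Interferon response genes were also mostly above 0. Of 33 measurable genes 30 had a log2 ratio above 0, 7 were at least 2-fold higher and none lower, with a median of 0.51. Ubd, which is induced by TNF and interferon, was at 1289 against 228 CPM (2.50), followed by the guanylate-binding protein Gbp5 (1.24), Iigp1 (1.21), Cxcl10 (1.14), Gbp2 (1.09), Irgm2 (1.03) and Igtp (1.004). Cxcl9, a T cell chemokine, had a median of 823 CPM per Csf3 cell (0 to 7478) and of 212 CPM per comparison cell (0 to 17710), and a log2 ratio of 0.80. Isg15 was at 989.8 against 790.1 CPM (0.33), Irf7 at 0.30, Irgm1 at 0.51, Oasl2 at 0.47 and Phf11d at 0.02. With the venous rank matched the median of the list was 0.23, and of the 7 only Ubd stayed at least 2-fold higher.

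Ccl5, a chemokine for T cells and monocytes, was lower on average, at 302 against 508 CPM (log2 ratio -0.75), but it had a UMI in 26.1% of thinned Csf3 cells and 27.2% of comparison cells. Without cells that had a UMI of Lyz2, Tyrobp, C1qa or Ptprc, an alternative added after seeing the data, the ratio of Ccl5 changed side to 0.81. Of 20 measurable genes of antigen presentation 5 were at least 2-fold higher and none lower, with a median of 0.47. The 5 belong to class II and had low levels: Cd74 at 67.1 against 24.97 CPM (1.43), H2-Ab1 at 18.2 against 5.71 CPM (1.67), and H2-DMb1, H2-Eb1 and H2-Aa at 1.75, 1.64 and 1.37. The class I genes H2-K1 and B2m had 0.18 and -0.03. Among cells of the same venous rank the median of the 20 was 0.00847 and none was at least 2-fold higher. Of the 13 measurable genes of STING and nucleic acid sensing none reached 2-fold, with a median of 0.21, 0.78 for Tmem173, which encodes STING, and -0.33 for Mb21d1, which encodes cGAS. Of 21 genes of the TNF superfamily and apoptosis, Tnfsf10, which encodes TRAIL (1.37), and the inhibitor Birc2 (1.21) were at least 2-fold higher, and the median was -0.12. Tnf itself had 3 UMIs in all Csf3 cells.

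Of 14 measurable leucocyte adhesion genes, 5 were at least 2-fold higher and 1 lower, with a median of 0.24. The 5 were Sele, Selp, Glycam1 (a sialomucin of high endothelial venules, 1.96), Icam1 at 430.4 against 136 CPM, and Vcam1 at 134 against 65.0 CPM. After thinning, Selp was found in 96.6% of Csf3 cells and 31.1% of comparison cells, Icam1 in 80.1% and 36.8%, and Vcam1 in 40.9% and 23.2%. Icam2, which resting ECs carry, had a log2 ratio of -0.63 and the junction gene Jam3 had -1.06. None of the 14 was at least 2-fold higher with the venous rank matched, but Sele, Selp, Icam1 and Vcam1 are themselves genes of that rank. Their ratios therefore shrink by construction.

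Of 14 measurable acute phase genes, 6 were at least 2-fold higher and 1 lower, with a median of 0.83. Ptgs2, the inducible cyclooxygenase, was at 7.63 against 0.637 CPM (3.58, and 2.96 with the venous rank matched). The protease inhibitors Serpina3n, Serpina3g and Serping1 had 2.16, 2.12 and 1.498. Lrg1 was at 1927 against 767 CPM, and the urokinase gene Plau had -1.23.

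Several basement membrane genes were lower. Of 16 matrix genes, Fn1, Nid2 (-2.38), Sparcl1 (-1.85) and Lama4 (-1.60) were at least 2-fold lower and Fbln2 (1.54) higher, with a median of -0.67, and of -0.43 with the venous rank matched. Of 16 hypoxia and glycolysis genes, Adm (-3.67) and Ankrd37 (-2.57) were at least 2-fold lower, with a median of -0.38. That median was -0.04 among cells of the same venous rank, where 2 of the 16 were at least 2-fold higher and 1 lower. Among 14 vasoactive genes Ptgs2 and Ptgs1 (1.83) were higher and Nos2, Adm, Cav1 (-1.62) and Ackr3 (-1.45) lower, while the endothelial nitric oxide synthase Nos3 had -0.01. Heat shock genes had a median of -0.13, but Hspa1a was at 33.8 against 229.5 CPM (-2.76) and stayed at -2.65 with the venous rank matched. The 16 measurable genes of the unfolded protein response had a median of 0.08 and none reached 2-fold.

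Mitotic genes were lower in Csf3 cells. Of 16 genes of G2 and mitosis, 13 were at least 2-fold lower and none higher, with a median of -1.22, and Mki67 was at 25.3 against 59.1 CPM. With the venous rank matched the median was -0.51 and 1 gene was at least 2-fold lower. Of 16 S phase genes 1 was at least 2-fold lower, with a median of -0.44. Cells at the low end of the G2 and mitosis list were Csf3 cells in 42 of 280 cases and cells at the high end in 25 of 268, and the intervals of these shares (11.03% to 19.7% and 6.13% to 13.5%) overlapped. The 2 measurable lymphatic genes had a median of -1.10, although Prox1, the transcription factor of lymphatic ECs, had UMIs in 13 Csf3 cells (7.39%) and 16 comparison cells (1.65%).

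**Figure D4:**
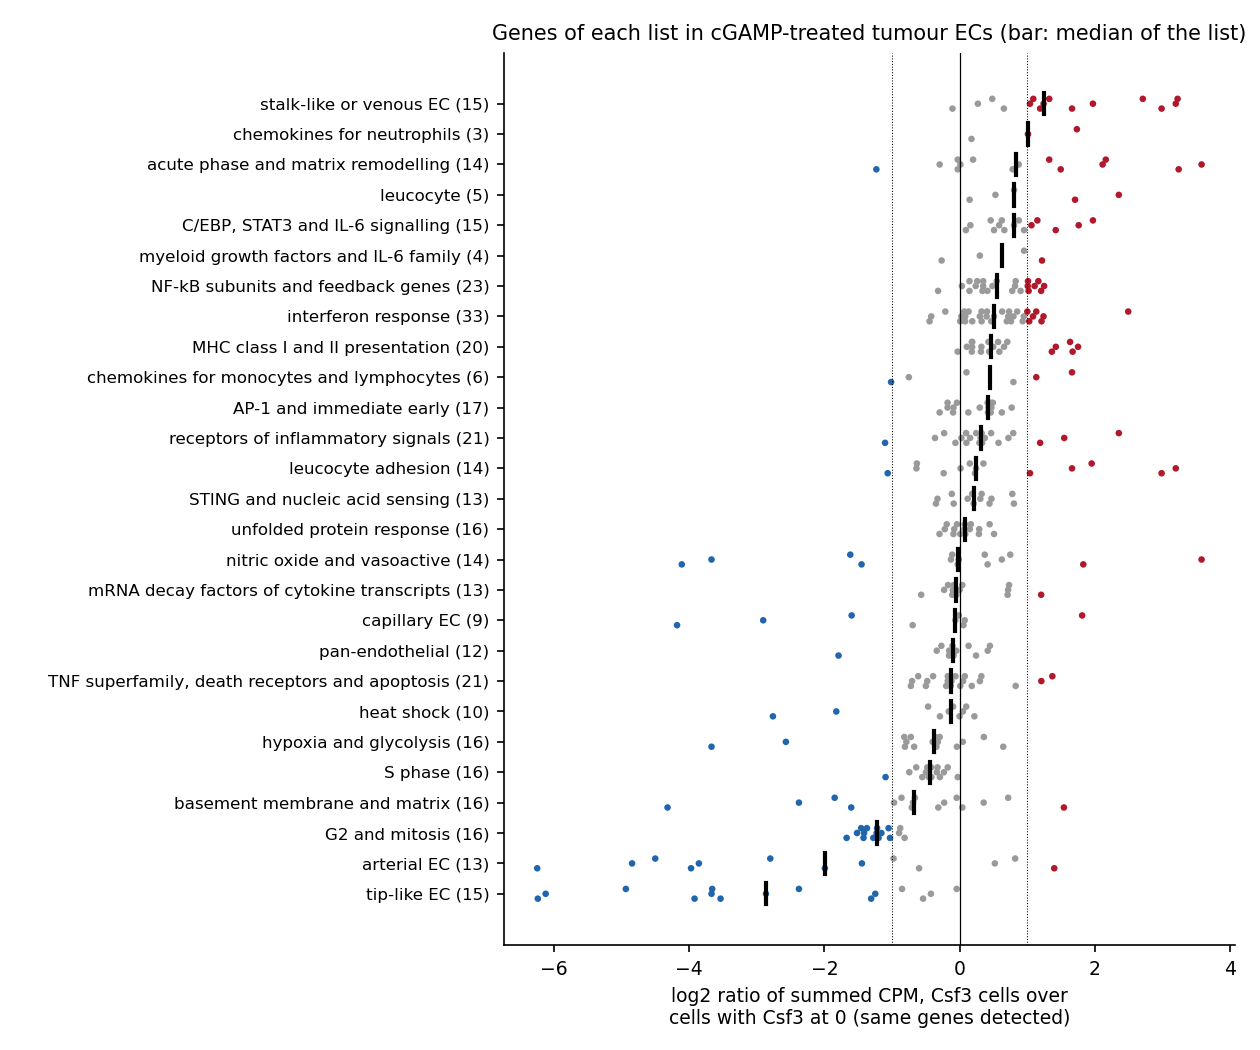
Log2 ratio of summed CPM, Csf3 cells over cells with Csf3 at 0 with the same genes detected, for the measurable genes of each list with 3 or more of them in the cGAMP library; the number of genes is in brackets, the black bar is the median, and red and blue points are at least 2-fold higher and lower. The venous list has the highest median (1.24) and the tip-like list the lowest (-2.87) among the lists drawn, which leave out the neutrophil, fibroblast or mural, lymphatic and epithelial lists; genes with fewer than 3 UMIs in Csf3 cells are placed at the ratio that 3 UMIs would give.

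The Csf3 cells were also described by how much Csf3 they held, the value that chose them, so the following levels carry no test. The cells were divided by their Csf3 value into 59, 58 and 59 cells with 165, 376 and 1101 CPM of Csf3. Il6 was at 115, 156 and 252 CPM from the lowest to the highest of these groups, and at 107.5 CPM in the cells below the limit. Lcn2 was at 30.5, 45.4 and 80.1 CPM, and at 22.7 CPM below the limit. Cebpb was at 183.5, 261 and 342 CPM, and at 153 CPM below the limit. The counting intervals of the 3 groups did not overlap for these genes, which says nothing of the spread between mice.

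Cxcl1 was at 122, 173 and 190.3 CPM. Ackr1 was at 599, 598 and 605 CPM and Hdc at 258, 226 and 276 CPM, without an order. Selp was at 1116, 1139 and 1265 CPM. The share of cells in the highest venous group was 61.0%, 65.5% and 64.4%, against 30.6% of the cells below the limit. The median of the venous list was 1.21, 1.31 and 1.30, and that of the NF-kB list was 0.48, 0.58 and 0.60. The median of the G2 and mitosis list was -1.02, -0.93 and -2.01. Ccl5 went the other way, at 598, 173 and 145 CPM, but it was uneven between cells. Its median was 10.6 CPM per Csf3 cell and its highest value 18760 CPM, and the part of single cells in these sums was not tested. Cells with more Csf3 had a similar number of genes detected, with medians of 6156, 6409 and 5872.

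**Figure D5:**
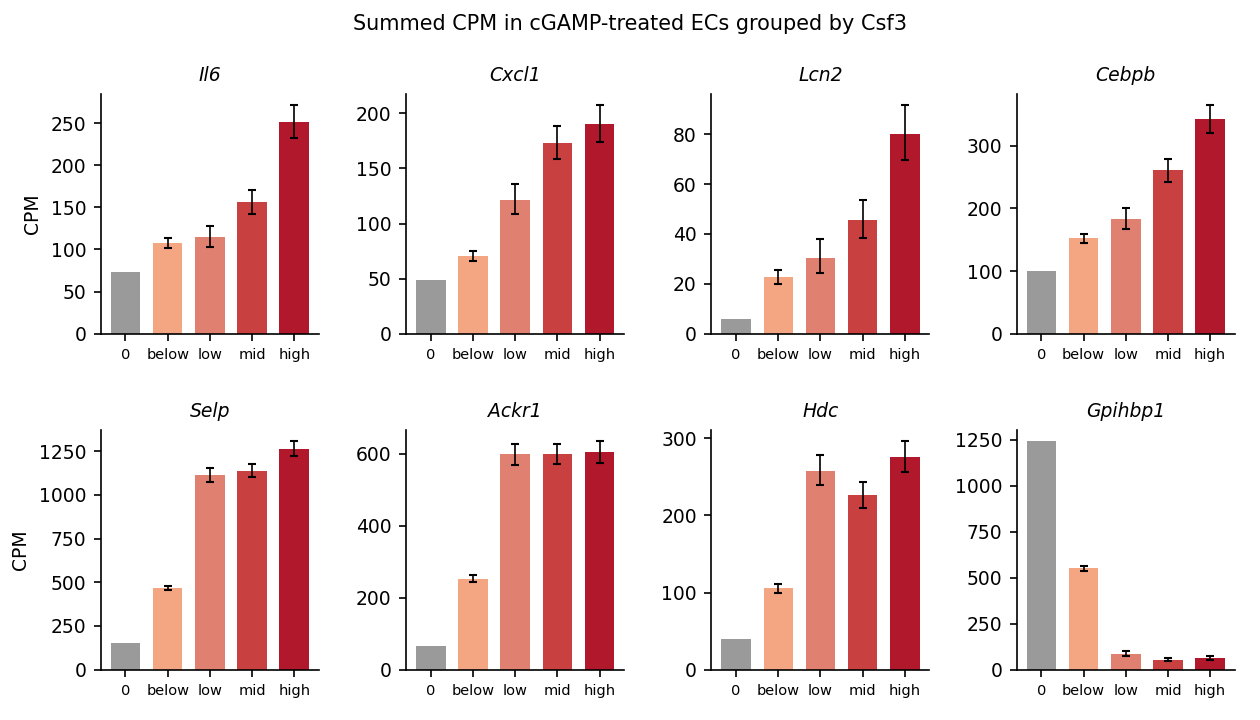
Summed CPM of genes in cGAMP-treated ECs with Csf3 at 0, above 0 and below the limit, and in the lowest, middle and highest of 3 groups of Csf3 cells by Csf3 value; bars start at 0 and lines are exact Poisson 95% intervals, drawn for the last 4 groups only. Il6 (115, 156 and 252 CPM), Lcn2 and Cebpb climb over the 3 groups of Csf3 cells, whereas Ackr1 (599, 598 and 605 CPM) stays level.

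The PBS library offered the same comparison in cells that the rule had not used. It held 32 cells at or above the limit among 2517 ECs (1.27%, 0.871 to 1.79), with 1 to 25 Csf3 UMIs and a median of 4, and 15 of them had 5 or more. Their summed Csf3 was 287.7 CPM. They were shallower than the Csf3 cells of the cGAMP library, with a median of 4744 genes and 24455 UMIs against 6098.5 genes and 42607 UMIs. They had a similar place in the venous ranking: 31 of the 32 were in the upper 2 of 5 venous groups, where they made up 3.08% of 1007 ECs (2.10 to 4.34), and 1 was among the other 1510.

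Of 9740 genes in the PBS library, 620 (6.37%) were at least 2-fold higher in Csf3 cells and 541 (5.55%) at least 2-fold lower. All 12 genes with the largest ratios after cGAMP were also at least 2-fold higher in PBS Csf3 cells, among them Fjx1 (log2 ratio 4.65), Fgf23 (4.25), Sele (4.02), Ackr1 (3.72) and Selp (3.03). Lcn2 rested on 3 UMIs there, at 3.67 CPM (0.757 to 10.7) against 0.586, with an interval of the log2 ratio from -0.15 to 4.74. Of the 300 genes that were 2-fold higher after cGAMP, 258 were measurable, 222 (86.0%) were at least 2-fold higher in PBS and 5 were at least 2-fold lower. Of the 356 that were 2-fold lower, 344 were measurable and 169 (49.1%) were at least 2-fold lower. Among the 8 lowest genes 7 were at least 2-fold lower in PBS, and the exception was Fn1, at 270.5 against 189 CPM (0.52). Fn1 was uneven between the PBS Csf3 cells, with a median of 0 and a highest value of 3483 CPM. After thinning it had a UMI in 4 of 30 PBS Csf3 cells (13.3%) and in 710 of 2308 comparison cells (30.8%).

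In the PBS library the lists of cytokine, NF-kB and interferon genes went different ways. Il6 had a log2 ratio of 2.21, Cebpb 2.39, Csf1 1.70 and Cxcl1 1.76, whereas Cxcl2 had -0.11. Of 5 measurable chemokines for monocytes and lymphocytes 4 were at least 2-fold lower and 1 higher, with a median of -1.58. The NF-kB list had a median of 0.93 with 11 of 23 at least 2-fold higher. Of 32 interferon response genes 19 were at least 2-fold lower and none higher, with a median of -1.13, against 0.51 after cGAMP. Ubd had 5 UMIs in PBS Csf3 cells and a log2 ratio of -1.95, Isg15 had -1.93 and Irf7 -2.71. Cxcl9 had 2 UMIs, with an interval of its log2 ratio from -8.96 to -4.00. Mitotic genes had a median of 0.02 in PBS against -1.22 after cGAMP. The difference between the libraries was not tested, since each has 1 mouse.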

How the data were processed

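Droplet-based scRNA-seq of sorted ECs from 1 PBS-injected and 1 cGAMP-injected LLC tumour was analysed. According to the submitters' notes and the methods, the authors used Cell Ranger 3.0.0 with the mm10 genome and Seurat 3.1.1, and dropped low-gene and high-mitochondrial cells as well as clusters lacking Pecam1. What the authors deposited are natural log values: each cell's UMIs were scaled to a total of 10000 before 1 was added and the log taken. Undoing this gave whole UMIs for 100% of the nonzero entries (tolerance 0.01), and those UMIs were used. They totalled 92081146 (PBS) and 63366746 (cGAMP) over 17139 listed genes. The labels and the methods name different versions of the library kit. No doublets were removed.

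UMIs of a gene were summed over the Csf3 cells and expressed as CPM with an exact Poisson interval. The comparison cells, those with Csf3 at 0, were weighted over 10 bins of genes detected to the UMIs of the Csf3 cells. Genes with at least 5 CPM on either side were counted, a ratio of at least 2-fold was called, and ratios with under 3 UMIs were set at the value of 3 UMIs. Shares carry exact Clopper-Pearson 95% intervals. Cells of 1 library are not replicates, so no test was made. The procedure was tested on simulated data. In the alternative called the same venous rank, comparison cells were weighted over 10 groups of the mean rank of the 15 venous genes and over genes detected above or at most the median.

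The genes named were the 12 with the largest and the 8 with the smallest ratios among those with at least 20 CPM, UMIs in at least 10% of the cells of the higher side, and the same direction in Csf3 cells above and at or below their median of genes detected, besides the genes the study names for these libraries and the members of the lists. The members and the gene lists were chosen with earlier results of these data known. Python 3.11.15, numpy 2.4.6, scipy 1.17.1, pandas 2.3.3 and matplotlib 3.10.9 were used.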

Additional observations from a re-analysis of the deposited data

How the results depend on the processing

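No paired analysis was possible because each condition has 1 library and no test was made. The main comparison gave 300 genes at least 2-fold higher and 356 lower, a median log2 ratio of 1.24 for the venous list and of 0.55 for the NF-kB list. The alternatives that moved these values were as follows. Weighting by tertile of the summed venous CPM gave 110 and 191 genes and a venous median of 0.50. Weighting by 10 groups of the venous rank, added after seeing the data, gave 51 and 120 genes, a venous median of 0.0586 and an NF-kB median of 0.207. Both weightings use the venous genes themselves, so the smaller venous medians follow from them. Any Csf3 UMI as the rule gave 176 and 136 genes and a venous median of 0.96. Adding the cells below the limit to the comparison gave 241 and 306 genes, a venous median of 1.08 and turned the neutrophil list from 2.13 to -0.93, and the cause was not tested. Thinning each cell to 5000 UMIs gave 507 and 568 genes, a minimum of 20 CPM 154 and 175, no minimum other than 3 UMIs 989 and 773, and a 1.5-fold limit 628 and 756. Pgf, which had UMIs in only 11.9% of Csf3 cells, turned from -2.87 to 0.65 with the venous tertiles and to 1.22 with the venous rank. Phf11d, at 0.02, changed side under several settings and stayed between -0.18 and 0.12. The other alternatives (no weighting, bins of UMIs, 5 bins, cell cycle, the mean of per-cell CPM, a limit of 1.5 or of 5 UMIs, and leaving out the deepest cells, the cells with the most Csf3 or cells with leucocyte UMIs) gave 274 to 340 genes higher and 332 to 395 lower. Leaving out cells with Ptprc or 5 or more S100a8 and S100a9 UMIs moved 0 named genes and 1 list median outside their main counting intervals. Leaving out cells with a Lyz2, Tyrobp, C1qa or Ptprc UMI moved 17 named genes and 8 list medians, while 13 and 22 stayed inside. In the PBS library, any Csf3 UMI as the rule (141 cells) kept 12 of the 12 higher genes past 2-fold and 5 of the 8 lower genes, against 7. Without replicate mice, no value here measures the spread between animals, and the 32 PBS cells limit what can be read for genes of low level there.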
